A study of Mus musculus with 2 samples.

Results

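The genes described here are 10 transcription factors and cell surface markers of the skeletal muscle lineage, namely the myogenic regulatory factors Myod1, Myog, Myf5 and Myf6, the myocyte enhancer factors Mef2a, Mef2c and Mef2d, the cofactor Vgll2, and the satellite cell genes Pax7 and Cdh15. They were chosen by name, but with earlier results of these data known, as were the gene lists below. Shares of all genes given beside their counts are therefore a description and no test. All 10 were found on the array among 28785 gene names, with 15 probes in all and a single probe for 7 of them. RNA came from subcutaneous tumours of Panc02, a mouse pancreatic carcinoma line, grown in C57BL/6 mice that were kept in an enriched environment, housing that offers more space, objects and company, or in a standard environment of ordinary caging. The mice entered their housing at 3 weeks of age, and all received tumour cells and stayed in the same housing for 5 more weeks. Tumour RNA of 6 mice per housing was pooled and labelled in a single colour for 1 array. The data therefore hold no spread between mice and allow no test of the housing, and the number of arrays limited the precision. The pools are called the enriched pool and the standard pool, and the enriched pool was compared with the standard pool throughout. Because the material was bulk tissue, fewer cells of a type and less RNA per cell cannot be told apart.

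Skeletal muscle is made by a chain of factors. Pax7 marks satellite cells, the stem cells that lie beside the fibres, and Myf5 and Myod1 commit their progeny to the muscle lineage. Myog then drives differentiation, and Myf6 is the member of the family that is most abundant in adult fibres. The 4 regulatory factors are basic helix-loop-helix proteins that pair with E proteins and bind E-boxes, and MEF2 proteins, which are also found in neurons, heart and blood cells, act with them on muscle promoters.

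Promoter windows from 250 bases before to 50 bases after the start of transcription were found for 8 of the 10 genes in RefSeq sequence of build GRCm38.p6. The windows of Myog, Vgll2 and Cdh15 are shown because each of these genes has a single window, was brighter on the standard array and holds an E-box. Capitals mark E-boxes, searched as CANNTG, which reads the same on both strands, and in Myog and Vgll2 also a run of 12 bases that both windows share.
Myog, chr1:134289754-134290053, plus strand: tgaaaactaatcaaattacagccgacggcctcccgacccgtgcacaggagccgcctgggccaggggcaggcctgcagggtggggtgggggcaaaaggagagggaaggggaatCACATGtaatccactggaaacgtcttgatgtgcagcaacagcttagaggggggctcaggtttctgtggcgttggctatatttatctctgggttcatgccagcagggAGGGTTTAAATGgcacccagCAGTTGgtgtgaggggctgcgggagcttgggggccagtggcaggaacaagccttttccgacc
Vgll2, chr10:52022252-52022551, plus strand: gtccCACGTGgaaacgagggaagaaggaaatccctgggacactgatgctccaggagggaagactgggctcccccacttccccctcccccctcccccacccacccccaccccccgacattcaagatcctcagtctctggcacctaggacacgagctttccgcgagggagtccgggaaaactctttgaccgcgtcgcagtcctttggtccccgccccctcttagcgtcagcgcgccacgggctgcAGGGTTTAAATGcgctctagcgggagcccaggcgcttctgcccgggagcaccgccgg
Cdh15, chr8:122848124-122848423, plus strand: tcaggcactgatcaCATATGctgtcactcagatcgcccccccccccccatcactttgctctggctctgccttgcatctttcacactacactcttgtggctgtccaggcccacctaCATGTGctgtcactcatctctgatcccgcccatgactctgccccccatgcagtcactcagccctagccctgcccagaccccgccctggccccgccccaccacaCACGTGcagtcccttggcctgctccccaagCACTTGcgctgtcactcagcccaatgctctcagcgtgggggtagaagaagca

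The Myog window held 2 E-boxes, CACATG starting 138 and CAGTTG starting 12 bases before the start. The Cdh15 window held 4 and the Vgll2 window 1, CACGTG, which starts 246 bases before it. The 8 genes had 10 windows, 3 of them for Mef2c, and 5 of the 10 held an E-box, 2 of them for Mef2c. Of all 32851 windows 72.3% hold it, so the motif is common and its presence is a description only. The E-box form CAGCTG was found in no window of the 8 genes, while 16.3% of all windows hold it. The MEF2 consensus was searched on both strands as YTAWWWWTAR, where Y is C or T, W is A or T and R is A or G. It was found in the Mef2a window alone, and 3.19% of all windows hold it. The Myog window holds ctatatttat, which departs from this pattern in its last base only. Sites that depart from the exact letters were not counted.

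A level is the log2 processed intensity after each array was divided by its own 75th percentile, and every difference was taken as enriched minus standard. Each array carried 43379 spots besides the controls, of which 77.4% in the enriched and 77.2% in the standard pool rose well above background. A probe was called detected where more than 50% of its spots were well above background. The lowest detected levels were -6.21 in the enriched and -5.68 in the standard pool, with processed intensities of 13.3 and 14.6. Of 20859 genes detected on both arrays, 1974 were at least 2-fold lower and 1190 at least 2-fold higher in the enriched pool, with a median difference of 0.03 over all of them. With no scaling between the arrays this median was 0.42 and the counts were 1213 lower and 2905 higher, so that differences below are to be read against the median of all genes.

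Of the 10 muscle lineage genes, 7 were detected on both arrays, Myog and Vgll2 on the standard array only, and Myf5 on neither. Of those 7 genes, 5 were at least 2-fold lower, against 9.46% of all genes detected on both arrays, and none was higher, against 5.7%. Of the 9 with a value, 7 were at least 2-fold lower in the enriched pool, counting Myog and Vgll2 by a bound, against 11.1% of all genes counted the same way. With bounds counted, 5.76% of all genes were at least 2-fold higher and again none of these. Mef2a and Mef2d, the most widely expressed of the 10, were lower by less than 2-fold. The median difference was -2.95 over the 7 genes detected on both arrays and -3.15 with the 2 bounds included.

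**Figure D1:**
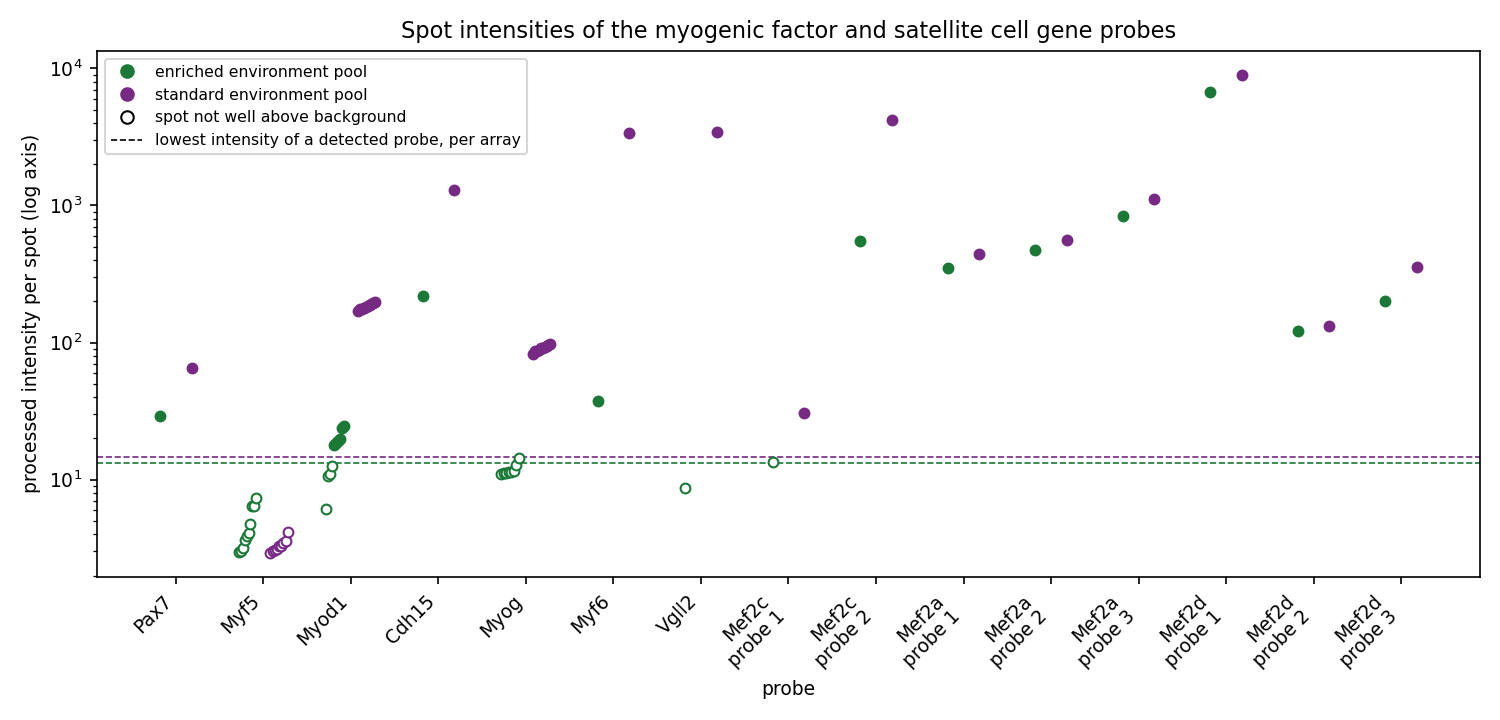
Processed intensity of every spot (vertical axis, log scale) for the 15 probes of the 10 genes (horizontal axis), with the enriched pool left of the standard pool for each probe. Spots marked as outliers are left out, open circles are spots not well above background and dashed lines the lowest intensity of a detected probe per array. Myf6 and Vgll2 stand furthest apart, and Myf5 is dim in both pools.

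Myf6, the factor of adult fibres, was the only one of the regulatory factors bright enough on the standard array to show a fall beyond -4.17. Its single spot read 37.5 in the enriched pool and 3375 in the standard pool. The levels were -4.72 in the enriched and 2.16 in the standard pool, a difference of -6.88 with an error of 0.24 from the scanner software's own estimate for the spots, or 118-fold lower. This left 0.849% of the standard level.

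Myod1, which commits cells to the muscle lineage, was measured by 10 spots per array. The enriched spots read from 6.08 through a median of 18.2 to 24.6, and the standard spots from 171 through 183 to 198. These are repeat spots on 1 array each, and only 6 of the 10 enriched spots were well above background. The levels were -6.02 ± 0.63 in the enriched and -2.04 ± 0.07 in the standard pool (SD over 10 spots of 1 array each), a difference of -3.98 or 15.8-fold lower. The enriched level lay just above the lowest detected level, and the largest fall that this probe could show was -4.17.

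Myog, which drives the differentiation of myoblasts, also had 10 spots per array. The 8 enriched spots that were not marked as outliers read from 10.9 through 11.3 to 14.3 and none was well above background. All 10 standard spots were, and they read from 81.9 through 91.8 to 97.1. Myog was therefore at least 8.89-fold lower in the enriched pool, with measured levels of -6.38 in the enriched and -3.05 in the standard pool. The bound sets the bright level against the higher of the lowest detected level on the other array and the gene's own level there.

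Myf5, which is active early in myoblasts and in some satellite cells, was not well above background in any spot. Its spots read from 2.95 to 7.31 in the enriched pool and from 2.93 to 4.15 in the standard pool. This leaves out 1 standard spot at 12.1 that was marked as an outlier. Without a spot well above background no fold was computed. The Myf5 and Myf6 genes are neighbours. On the array design's build, mm7, the Myf6 probe lies at chr10:106955664-106955723 and the Myf5 probe at chr10:106945401-106945460, both on the minus strand with 10203 bases between them. On the standard array Myf6 was bright while Myf5 was at background.

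Vgll2, a partner of TEAD transcription factors that is largely restricted to skeletal muscle, read 8.75 in the enriched pool and 3418 in the standard pool. Only the standard spot was well above background, and Vgll2 was at least 335-fold lower in the enriched pool. This bound of -8.39 on the log2 scale was the furthest from 0 of the 9 genes with a value. The probe lies at chr10:51843174-51843233 on mm7.

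The MEF2 genes split. Mef2c, the member most tied to skeletal and cardiac muscle, read 548 in the enriched and 4221 in the standard pool with the probe at chr13:80738124-80738183 on mm7. The difference was -3.33 with a spot error of 0.20, or 10.1-fold lower. A second Mef2c probe, for a cDNA placed 85571 bases away on the same strand, was dim, at 13.6 in the enriched and 30.5 in the standard pool. Only the standard spot passed the background mark, which gives a bound of at least 2.93-fold lower.

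The 3 Mef2a probes read 351, 472 and 837 in the enriched pool and 440, 561 and 1106 in the standard pool. Their differences of -0.71, -0.63 and -0.79 averaged -0.71 ± 0.08 (SD over 3 probes), or 1.64-fold lower. The 3 Mef2d probes read 6723, 121 and 202 in the enriched and 8981, 133 and 353 in the standard pool. Their differences of -0.80, -0.52 and -1.20 averaged -0.84 ± 0.34 (SD over 3 probes), so 1 of them passed 2-fold and the gene did not. Spot errors of these differences were 0.20 to 0.21, smaller than each difference. They rest largely on a proportional error preset in the scanner software, and cover no spread between mice.

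Both satellite cell genes were detected on both arrays. Pax7 read 29.2 in the enriched and 64.8 in the standard pool, with levels of -5.07 and -3.54 in the same order, a difference of -1.54 with a spot error of 0.29, or 2.90-fold lower. Cdh15, which encodes the M-cadherin that holds satellite cells and myoblasts to fibres, read 219 in the enriched and 1297 in the standard pool. It differed by -2.95 with a spot error of 0.20, or 7.73-fold lower. The largest fall that the Pax7 probe could show was -2.67, which is less than the fall of Cdh15. The enriched Pax7 spot was nevertheless detected, at -5.07 against a lowest detected level of -6.21. The Pax7 difference, smaller than that of Cdh15, is therefore a measured value, though from a dim spot. Under normexp background correction with an offset of 50, which adds to dim values by construction, the Pax7 difference was -0.84 and no longer 2-fold. The same correction gave -1.99 for Myod1, -5.40 for Myf6 and bounds of -1.36 for Myog and -5.90 for Vgll2.

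**Figure D2:**
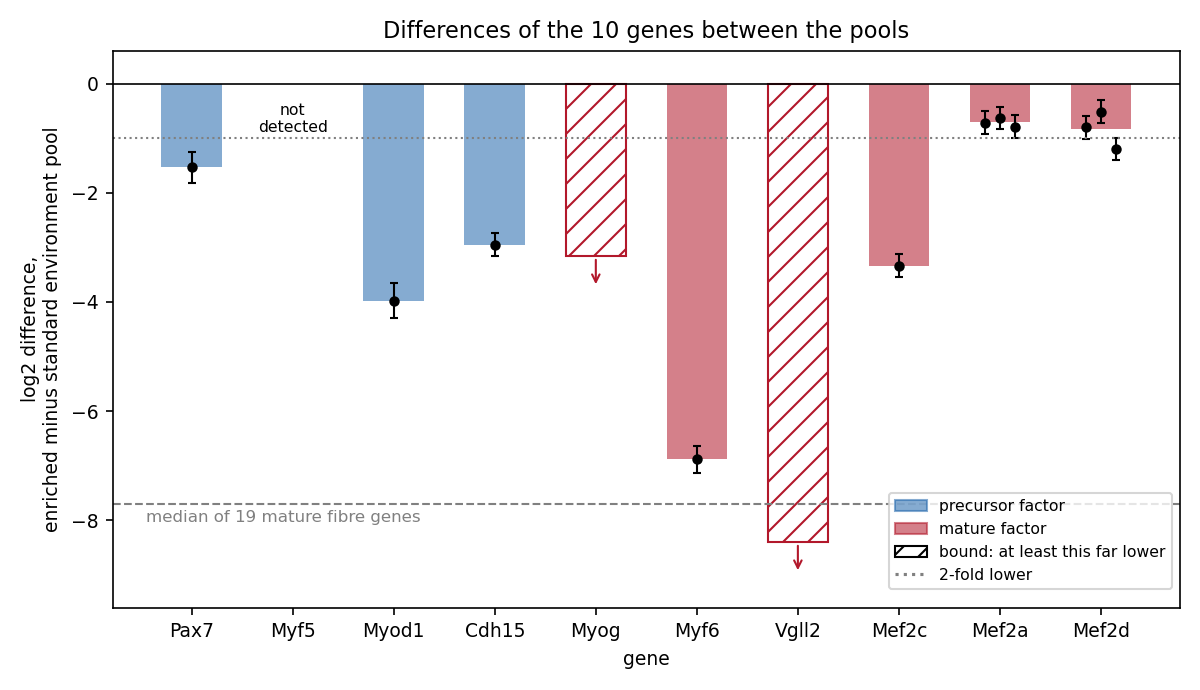
Log2 difference, enriched minus standard pool (vertical axis), for the 10 genes (horizontal axis). Bars are gene values, points single probes with the error estimated by the scanner software, hatched bars bounds for genes detected on the standard array only. Myf6 and Vgll2 lie near the dashed median of 19 mature fibre genes, -7.71, and Mef2a and Mef2d above the dotted line of 2-fold.

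Precursor factors were set beside mature factors, with Pax7, Myf5, Myod1 and Cdh15 in the first group and Myog, Myf6, Mef2a, Mef2c, Mef2d and Vgll2 in the second. All 3 precursor genes with a value were at least 2-fold lower, against 9.46% of all genes detected on both arrays. They ranged from -1.54 to -3.98 with a median of -2.95, and Pax7 was no longer 2-fold lower under normexp. Of the 6 mature factors, 4 were at least 2-fold lower with bounds counted, against 11.1% of all genes. The mature median was -2.09 over the 4 detected on both arrays and -3.24 with both bounds included. The precursor values lay inside the range of the mature ones, which reached from -0.71 for Mef2a to the bound of -8.39 for Vgll2. Dim probes limit this comparison, since the largest falls that could be shown were -2.67 for Pax7 and -4.17 for Myod1. With 1 pool per housing the difference between the groups was not tested.

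The genes that build the contractile fibre were measured in the same pools. In a list of 19 mature fibre genes all were at least 2-fold lower in the enriched pool, against 9.46% of all genes detected on both arrays. The median was -7.71, with Ckm, the muscle creatine kinase, at -8.56, Myh2, a fast myosin, at -8.47, and Mb, myoglobin, at -8.40. These genes made up 0.104% of the signal summed over probes in the enriched pool and 4.79% in the standard pool. Myf6 lay 0.83 above the fibre median and the bound for Vgll2 differed from that median by -0.68. The probes of Pax7, Myog, Myod1 and Cdh15 were too dim on the standard array to show so large a fall, with limits of -2.67, -3.15, -4.17 and -6.99, and so were the Mef2a probes. Myog gave a bound and Myod1 lay just above the lowest detected level, so their distance from the fibre median has no order. Cdh15, at -2.95, Mef2a, at -0.71, and the dim Pax7, at -1.54, were detected in the enriched pool, and these measured falls were smaller than the fibre median. The brightest Mef2d probe, at -0.80, and the brighter Mef2c probe, at -3.33, could have shown falls of -9.78 and -8.69. The part of the fibre signal in the differences of the factors was not tested.

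Other satellite cell genes went both ways. Of 15 with a value in a list of 16, 4 were at least 2-fold lower, against 11.1% of all genes, and 1 was higher, against 5.76%. The median of -0.33 lay between -0.47 and 0.06 over the alternative processings. Chrdl2 differed by -2.65, the receptor gene Megf10, which holds satellite cells in an undifferentiated state, by -2.35, and Spry1, an inhibitor of growth factor signals, by -1.13. Calcr, the calcitonin receptor of resting satellite cells, was at least 2.16-fold lower, near the detection limit on the standard array with a level of -5.09. Met, the receptor of hepatocyte growth factor that epithelia also express, differed by 1.20. Pax3, the relative of Pax7, was not well above background on either array.

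Factors that act upstream of the regulatory genes were also counted. Of 11 with a value, 6 were at least 2-fold lower, against 11.1% of all genes, and 2 were higher, against 5.76%. The median was -1.68 over the 8 detected on both arrays. The transcriptional coactivator gene Eya1 had levels of -4.31 in the enriched and -0.75 in the standard pool, a difference of -3.56 ± 0.19 (SD over 2 probes). Its relative Eya4 differed by -3.02 ± 0.16 (SD over 3 probes), while Eya2 differed by 0.21. Pitx3 differed by -2.60, and Lbx1, a homeobox gene of migrating muscle precursors, was at least 13.2-fold lower. Dmrt2, at 1.53, and Msc, a repressor of muscle genes at least 2.15-fold higher, went the other way. Tcf21 was not well above background on either array.

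The partners and inhibitors of the helix-loop-helix factors differed in both directions. All 14 were detected on both arrays. At least 2-fold lower was 1 of them, against 9.46% of all genes detected on both arrays, and 2 were higher, against 5.7%. The median of -0.16 lay between -0.17 and 0.23 when the processing was varied. Among the E proteins, Tcf3 differed by 0.41, Tcf12 by -0.35 and Tcf4 by -0.74, and among the inhibitors Id1 by -0.37, Id2 by 0.27 and Id3 by -0.22. Twist2 and Twist1, mesenchymal factors that block MyoD, differed by 2.59 and 1.61, and the repressor gene Zeb1 by -1.34. In the same pools the 9 fibroblast genes went both ways, with a median of 0.39. At least 2-fold higher were 4 of them, against 5.7% of all genes detected on both arrays, and 3 were lower, against 9.46%. The matrix genes Col3a1, Postn and Col1a1 differed by 2.96, 2.95 and 2.02, while the receptor genes Pdgfra and Pdgfrb and the matrix gene Dcn differed by -1.02, -1.18 and -1.03.

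Of 21 genes of MEF2 partners and regulators, 2 were at least 2-fold lower, against 9.46% of all genes detected on both arrays. None was at least 2-fold higher, against 5.7%. The median was -0.23, and 0.16 without scaling, when the median of all genes was 0.42. Camk2a, a calcium-dependent kinase, was at -3.67 in the enriched and 2.47 in the standard pool, a difference of -6.14. Smyd1, a methyltransferase of striated muscle, differed by -1.78, and the MEF2-repressing deacetylases Hdac9, Hdac4 and Hdac5 by -0.87, -0.64 and -0.35, while Hdac7 of the same class differed by 0.82 over 2 probes. Mef2b differed by -0.41. Of the 7 VGLL and TEAD genes detected on both arrays, Tead4 alone passed 2-fold, at 1.36, against 5.7% of all genes that were higher. Tead1 differed by -0.62 and Vgll4 by 0.01. Vgll1 was not well above background on either array.

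Of 12 genes of developing and fusing muscle with a value, 9 were at least 2-fold lower, against 11.1% of all genes. None was at least 2-fold higher, against 5.76%. Tnnt2, a troponin of cardiac and developing muscle, differed by 0.90 over 2 probes. Myh8, the perinatal myosin, had levels of 2.74 in the enriched and 9.01 in the standard pool, a difference of -6.27, and the embryonic myosin Myh3 was at least 8.58-fold lower. Chrna1, an acetylcholine receptor subunit kept at the adult synapse, differed by -4.33, Actc1, the cardiac actin of developing muscle, by -2.24, and Bex1 was at least 19.7-fold lower. Jsrp1, at -7.55, and Stac3, at -4.52, belong to the calcium release apparatus that adult fibres keep. By contrast Chrng, the fetal receptor subunit, differed by -0.64 over 2 probes that disagreed (SD 1.14), and Mymk, which is needed for fusion, by -0.43.

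**Figure D3:**
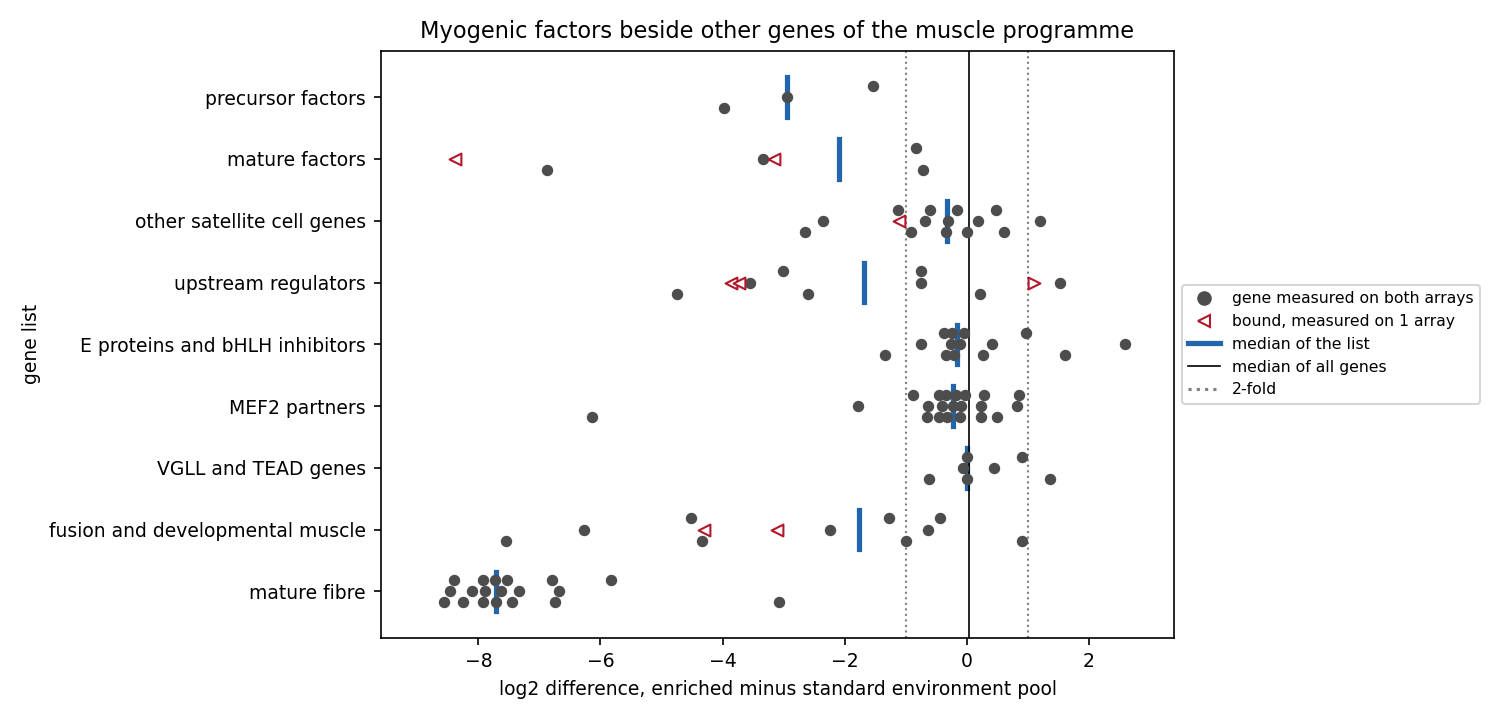
Log2 difference, enriched minus standard pool (horizontal axis), of each gene in 9 lists (vertical axis). Points are genes detected on both arrays, open triangles bounds, thick bars list medians and the solid line the median of all genes, 0.03. Mature fibre genes lie furthest to the left, and the MEF2 partner and E protein lists lie around the median of all genes.

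Markers of other cells were measured beside the factors. The 11 carcinoma epithelium genes were all detected on both arrays. Of these, 10 were at least 2-fold higher in the enriched pool, against 5.7% of all genes detected on both arrays. Their median was 2.07, with 1.14% of the summed signal in the enriched against 0.284% in the standard pool. Of the pancreas markers, Pdx1 was at -2.13 in the enriched and -2.85 in the standard pool, and Ptf1a, detected on the standard array only, was at least 2.58-fold lower. All 5 erythroid genes and all 5 brown fat genes with a value were at least 2-fold lower, against 11.1% of all genes with bounds counted. Their medians were -5.59 and -4.36 over the 4 of each list that were detected on both arrays. Their summed signal was 0.00423% in the enriched and 0.196% in the standard pool for the erythroid list, and 0.00100% and 0.0400% in the same order for the brown fat list.

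Markers of other cell types that can express Mef2c were also measured. All 7 endothelial genes were lower, with a median of -0.70, against a median of 0.03 over all genes detected on both arrays. Tie1, at -1.05, was the only 1 of the 7 past 2-fold, against 9.46% of all those genes. The 8 leukocyte genes had a median of 0.06, with the B cell gene Cd79a at -0.08. Of 6 nerve genes, 2 were at least 2-fold lower, among them S100b at -1.79, against 9.46% of all genes. Of the 7 cardiac genes 1 was at least 2-fold lower, against 11.1% of all genes with bounds counted. This was Myh6, at least 10.5-fold lower, and the others, among them Tbx5 at -0.70 and Nkx2-5 at -0.08, were within 2-fold. The smooth muscle list had a median of -0.16, which was -1.04 with the brightest probe of each gene and 0.22 without scaling, with Cnn1 and Tagln at 2.48 and 2.21, and with Lmod1 at -2.41, Smtn at -1.04 and Des, an intermediate filament shared with skeletal muscle, at -6.80. The part of these cells in the Mef2c difference was not tested.

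Genes were looked up by the gap of their difference to -5.43, the median of the regulatory factors detected on both arrays. This is the midpoint of Myod1, at -3.98, and Myf6, at -6.88, so a small gap is no nearness to either of them. Over these 2 arrays and among genes with several probes in 1 direction, they were Myom1, an M-band protein, at -5.39, Synm at -5.68, the globin gene Hba-a1 at -5.72, Hspb7 at -5.13 and Tmem38a, a channel of the sarcoplasmic reticulum, at -5.12. The gaps were 0.04 to 0.31. The SD between probes was larger than these gaps for Myom1, at 1.07, and for Hspb7, at 1.29. A likeness over 2 arrays is 1 difference per gene and no more.

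**Figure D4:**
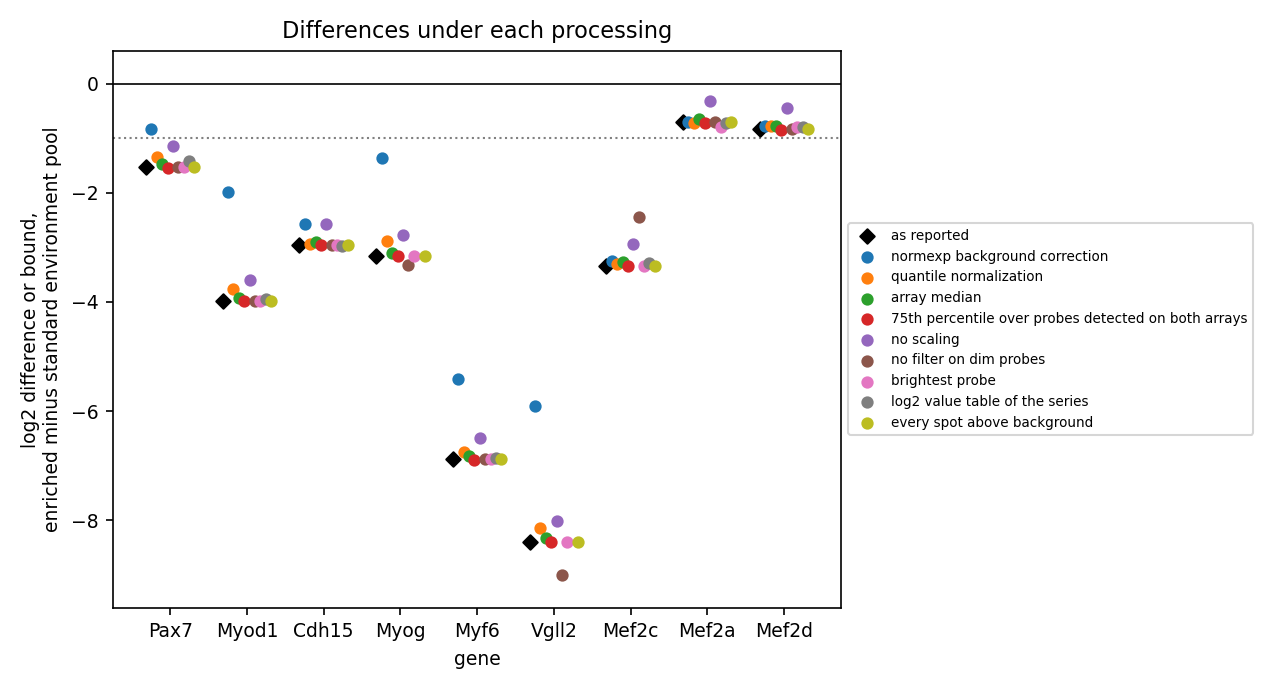
Log2 difference or bound, enriched minus standard pool (vertical axis), of the 9 genes with a value (horizontal axis) as reported (black diamonds) and under 9 other processings (coloured circles), with the dotted line at 2-fold lower. The normexp correction moves Pax7, Myod1, Myog, Myf6 and Vgll2 most, which were dim in the enriched pool, and all values stay below 0.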

How the data were processed

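Per the submitters' processing notes, spots were read with Agilent Feature Extraction 10.7.1.1. The deposited linear intensity of a spot had spatial and multiplicative trends removed and surrogates allowed for dim spots, per the file headers, and comes with an error estimate and a mark for spots well above background. Both arrays lie on 1 slide, per the file headers. A deposited table of log2 values for 30319 probes, whose scaling and centring by the authors stay unknown, served as an alternative. Its columns correlated with log2 intensity at r = 1.00, and their medians were 8.56 in the enriched and 8.54 in the standard environment pool.

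The 1639 control spots and the outlier spots, 70 in the enriched and 66 in the standard environment pool, were left out. Intensities were divided by the array's 75th percentile, 984 in the enriched and 753 in the standard environment pool, before log2 was taken. Means were taken over the spots of a probe, and then over a gene's detected probes. Among 41161 probes, 22943 were named through their RefSeq accession and 18218 kept the file's name. Differences of at least 2-fold were counted, with no p-value, since each group was 1 array. The steps were tested on simulated data.

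The members and lists were chosen with earlier results of these data known. Named in each list were the 3 largest differences, up to 6 genes at least 2-fold apart and defining genes detected on neither array. Others, such as the Id, Eya and TEAD genes within 2-fold, were chosen after their values were seen. The alternatives were normexp (limma 3.58.1, R 4.3.3), other scalings, no filter, the brightest probe, the deposited table and a 1.5-fold threshold. A rule that every spot be well above background was added after seeing the data. Python 3.11.15 and pandas 2.3.3 were used. Some genes of the lists are counted in them but not reported here by name.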

Additional observations from a re-analysis of the deposited data

How the results depend on the processing

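The 7 genes that were at least 2-fold lower numbered 6 under normexp, without Pax7, 5 in the deposited log2 table, which holds neither Myog nor Vgll2, and 9 at 1.5-fold, against 20.8% of all genes. They numbered 7 under the other 7 alternatives, and none was higher under any. The median of the genes detected on both arrays was -1.99 with normexp, -2.56 without scaling, -2.70 without a filter on dim probes and -2.24 where every spot had to be well above background. The precursor median was -1.99, -2.56, -2.24 and -2.24 in the same order, and the mature median -1.70 without scaling and -2.89 without the filter, so the order of the 2 medians depends on the processing. The count of all genes at least 2-fold lower was 1213 without scaling and 3796 without the filter, and that of genes at least 2-fold higher 669 with normexp and 2905 without scaling. Without the filter Mef2c, averaged with its dim probe, was at -2.44. No difference of a member changed sign, and Mef2a lay between -0.79 and -0.33 and Mef2d between -0.85 and -0.45. No paired analysis was possible because each housing had 1 pool and no replicate numbers, and no array could be left out. Signal over background limits Myog, Vgll2 and the second Mef2c probe to bounds.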

Other observations

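The run AGGGTTTAAATG, shared by the Myog and Vgll2 windows, was noticed after the sequences were read. It starts 32 bases before the start in Myog and 7 bases before it in Vgll2, and on either strand it occurs in 4 of 32851 windows. The other windows are those of Atp2b4 and of Myoparr, a non-coding RNA transcribed from the Myog promoter region. Neither had a probe matched by name, and the match is a description of letters only.

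Probes of some muscle lineage genes disagreed. Among the mature fibre genes, the 3 probes of Ryr1 averaged -5.82 with an SD of 4.48. The 3 probes of Fgfr4, a receptor of myoblasts, averaged -0.69 with an SD of 1.75, and the 7 probes of Ncam1, an adhesion molecule of satellite cells and nerve, averaged 0.61 with an SD of 1.14, against a median SD between probes of 0.17 over all 6609 genes with several.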
